A study of Mus musculus with 42 samples.

Results

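RNA of 9 lineage marker genes was followed through the 8 RNA-seq libraries of a study of the muscle stem cell factor Pax7. The genes mark endothelial cells (*Pecam1*, *Cdh5*, *Kdr*, *Tek*), blood cells (*Ptprc*, *Cd68*, *Lyz2*) and mesenchymal or progenitor cells (*Ly6a*, *Dcn*). They were taken by symbol, and all 9 are among the 24466 gene symbols of the count files. The question was how much RNA of cell types other than muscle precursors each group of libraries holds.

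The first group was iPax7 cells, myogenic precursors derived from a mouse embryonic stem cell line in which doxycycline (Dox) switches on a Pax7 transgene, grown in 0.75 µg/ml Dox (+Dox, 3 libraries). The second was the same cells 3 days after Dox was taken away (-Dox, 2 libraries). The third was satellite cells, the resident stem cells of skeletal muscle, isolated from mouse muscle by a Pax7-ZsGreen reporter and labelled in vivo (3 libraries). iPax7 precursors were purified from embryoid bodies as PDGFαR+Flk-1- cells. Flk-1 is the protein of *Kdr*, so 1 of the 9 genes had been used to select the iPax7 cells. Accessibility (ATAC-seq) and histone mark peaks of iPax7 cells and of C2C12 cells, a mouse myoblast line that was also made to express Flag-tagged Pax7, were read at the same genes, with ATAC-seq peaks of satellite cells. ATAC-seq also covered iPax7 cells 12 h and 24 h after Dox removal. Myotubes made from iPax7 and from C2C12 cells in 2% horse serum were covered by ATAC-seq as well.

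Endothelial cells line blood vessels and hold together by junctions in which Pecam1 and VE-cadherin, the product of *Cdh5*, take part, while Kdr and Tek receive VEGF and angiopoietin signals. CD45, the product of *Ptprc*, sits on nearly all nucleated blood cells, and *Cd68* and *Lyz2* belong to the lysosome and to the secreted bactericidal enzymes of macrophages. Decorin (*Dcn*) is a collagen-binding proteoglycan of fibroblasts, and *Ly6a*, which encodes Sca-1, is found on several stem and progenitor cells as well as on endothelium. In muscle, satellite cells lie between fiber and basal lamina, beside capillaries, macrophages and fibro-adipogenic progenitors, which share many of these markers.

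Libraries held 39010958 to 54674619 counts on genes. In satellite cells 23.6% to 30.7% of reads had been set aside as matching several places, against 7.11% to 7.6% in iPax7 cells. Since no group holds both cell sources, source and library preparation cannot be told apart. Pax7 RNA itself followed the labels. It had 12759, 14130 and 11610 normalized counts in +Dox, 221 and 270 in -Dox, and 8504, 3926 and 5456 in satellite cells. Normalized counts are raw counts scaled to a common effective library size (TMM method of edgeR). A gene was called different with an adjusted p under 0.05 and a change of at least 2-fold. Adjusted p-values are from edgeR's quasi-likelihood test, Benjamini-Hochberg adjusted over the 14836 genes tested.

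Satellite cells were called higher for 7 of the 9 genes against +Dox, where 23.9% of all genes tested were called higher and 42.1% in either direction. Against -Dox they were called higher for 8 of the 9, where those shares were 20.4% and 37.6%. The same 7 and 8 genes had every satellite cell library above every iPax7 library of the comparison, as had 30.2% and 33.7% of all genes, and no member had every library below (26.3% and 30.6% of all genes). *Ly6a* was called in neither comparison and *Cd68* only against -Dox. None of the 9 was called lower in satellite cells, against 18.2% and 17.2% of all genes. Between -Dox and +Dox, 1 member was called higher and 1 lower, and 7.64% of all genes were called in either direction. The median log2 fold change of the 9 genes, with genes at or near 0 counts set to their bound, was 8.62 against +Dox and 8.30 against -Dox, and that of all genes tested was 0.17 and 0.23. All 9 passed the filter on low counts, but 4 of them (*Pecam1*, *Cdh5*, *Kdr* and *Ptprc*) passed only through the satellite cell libraries and so had to differ, which makes these counts and medians a description, and no p-value is given for their difference from satellite cells. In bulk RNA, more cells of another type and more RNA of the gene per cell cannot be told apart.

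**Figure D1:**
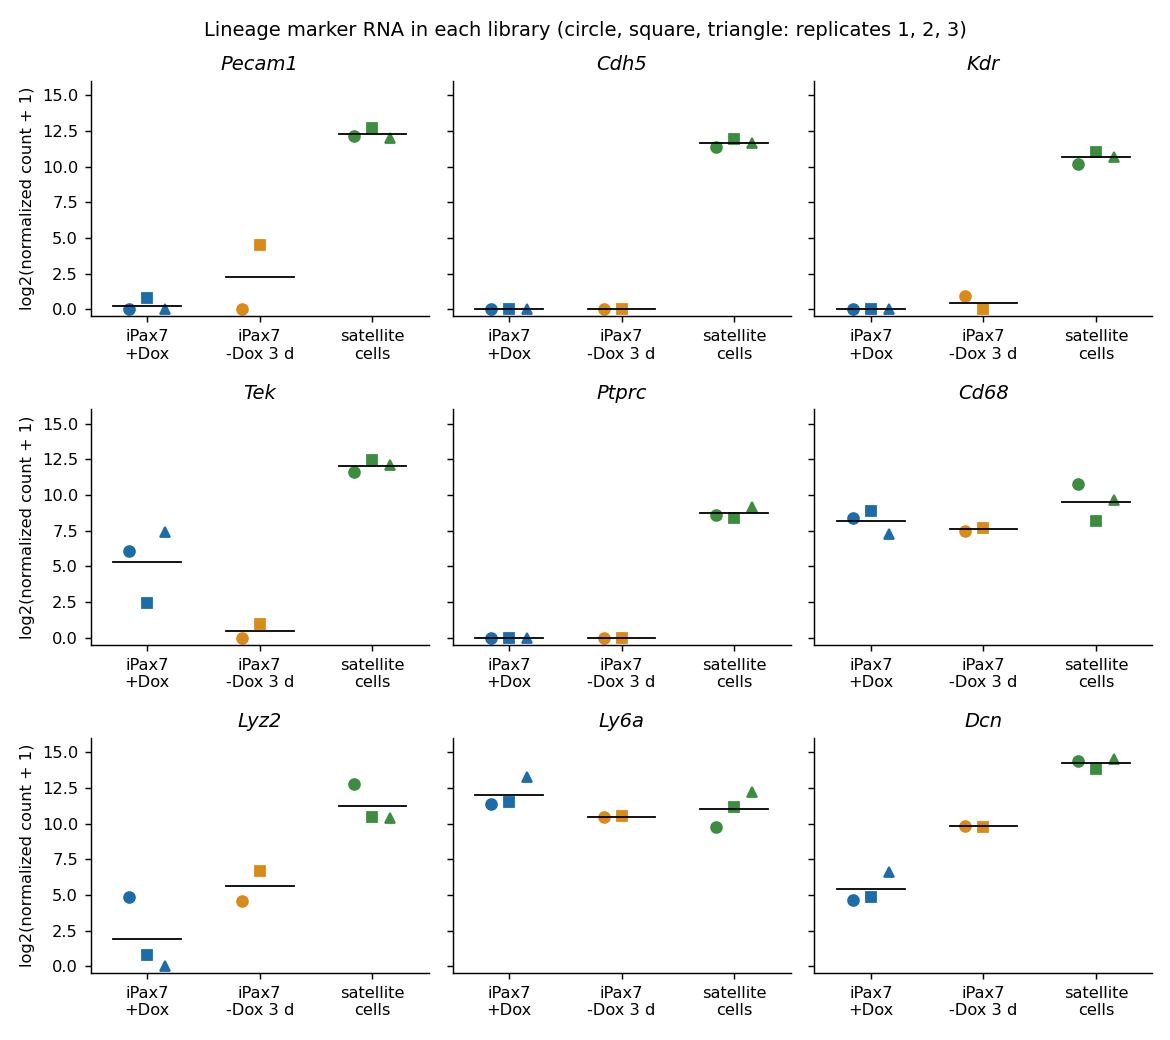
Level of each lineage marker gene in each library, as log2(normalized count + 1), by group. Symbols are libraries and the black line is the mean of the group on this scale. The satellite cell libraries stand above all iPax7 libraries except for *Cd68* and *Ly6a*, and *Dcn* and *Tek* separate -Dox from +Dox in opposite directions.

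*Pecam1* encodes an adhesion molecule of endothelial junctions and lies on chromosome 11, 106515531 to 106611942 (minus strand; NCBIM37, as for all positions here). It had 4515, 6702 and 4041 normalized counts in satellite cells (mean 5086 ± 1419, SD, n = 3). In +Dox a single read was counted over the 3 libraries, and in -Dox all 23 reads came from replicate 2. The 3 satellite cell libraries were within 1.66-fold of each other and far above every iPax7 library. The ratio to +Dox rests on that 1 read and was 19191, with an exact 95% counting interval of 3444 to 758068. Against -Dox the log2 fold change was 8.89 (standard error 1.17). Between -Dox and +Dox the adjusted p was 0.085, and the direction turned when -Dox replicate 2 was left out.

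*Cdh5*, the cadherin of endothelial adherens junctions (chromosome 8, 106625525 to 106668402, plus strand), had no read in any of the 5 iPax7 libraries. Satellite cells had 2601, 3839 and 3259 normalized counts (3233 ± 619, SD, n = 3). The groups do not overlap. Zero reads allow up to 3 counts over a group, which is 0.0168 CPM (counts scaled to 1e6 per library) in +Dox and 0.0292 in -Dox. Measured against this floor, *Cdh5* was at least 4069-fold higher in satellite cells than in +Dox and at least 2338-fold higher than in -Dox. Floors and intervals cover counting error only.

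*Kdr*, the main VEGF receptor of endothelium (chromosome 5, 76328852 to 76374483, minus strand), gave 1164, 2115 and 1670 normalized counts in satellite cells (1650 ± 476, SD, n = 3). Among iPax7 libraries 1 read was counted, in -Dox replicate 1. Its product was the negative marker of the iPax7 sort. The positive marker of that sort, *Pdgfra*, had 2 reads in +Dox and 0 in -Dox, and what the sort contributed to these levels was not tested. The satellite cell level was at least 2075-fold that of +Dox, and the ratio to -Dox was 3576 with an exact 95% counting interval of 641 to 141274.

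*Tek* encodes the angiopoietin receptor Tie2, which has been described in satellite cells as well as in endothelium (chromosome 4, 94405980 to 94541667, plus strand). Satellite cells had 3100, 5667 and 4356 normalized counts (4375 ± 1284, SD, n = 3). The +Dox libraries had 67.6, 4.44 and 166, and -Dox had 0 and 0.923. Unlike the other 3 endothelial genes, *Tek* was thus detected in all 3 +Dox libraries, though they spread over 37.3-fold. Satellite cells were higher than +Dox by 5.79 on the log2 scale (standard error 1.01, adjusted p = 0.00162), and their ratio to -Dox was 9482, with an exact 95% counting interval of 1702 to 374572 (adjusted p = 0.000658).

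*Tek* fell on Dox withdrawal. The ratio of +Dox to -Dox was 160, with an exact 95% counting interval of 28.4 to 6330 that rests on 1 read in -Dox (adjusted p = 0.036). In this comparison 3.01% of all genes were called lower. Both -Dox libraries lay below all 3 +Dox libraries, as for 22.7% of all genes. The call was lost whenever any library other than +Dox replicate 2 was left out (adjusted p between 0.0501 and 0.227), and also with the replicate number as a block (adjusted p = 0.115).

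The Pax7 ChIP-seq peaks of +Dox cells include 1 in *Tek*. It spans chr4:94419113-94419804, 13133 bases from the first annotated start, in intron 1 of the 3 annotated transcripts that begin upstream of it. No other of the 9 genes had a Pax7 peak within 20 kb of a start, against 5.4% of 20660 genes with an annotated start, and within 100 kb only *Cd68* was added, against 19.1% of genes. The middle of this site and the stretch before the first *Tek* start are printed, since accessibility was read at these places. Capitals mark the E-box CAGCTG, searched on both strands.
Pax7 site in Tek, chr4:94419359-94419558, plus strand: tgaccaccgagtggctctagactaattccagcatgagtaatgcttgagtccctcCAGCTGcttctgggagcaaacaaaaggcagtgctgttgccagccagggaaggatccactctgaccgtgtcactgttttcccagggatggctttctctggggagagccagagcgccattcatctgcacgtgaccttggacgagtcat
Tek upstream, chr4:94405780-94405979, plus strand: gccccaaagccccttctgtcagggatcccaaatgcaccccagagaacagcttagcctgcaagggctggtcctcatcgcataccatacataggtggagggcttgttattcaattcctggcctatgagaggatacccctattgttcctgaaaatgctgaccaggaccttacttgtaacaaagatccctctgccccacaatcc
The site window holds 1 CAGCTG, as do 17.6% of the 2455 Pax7 sites in their central 200 bases. For homeodomain pairs only 1 pattern was searched, with a fixed gap of 3 bases. The window does not hold it, and 1.38% of the sites do. Other gap lengths and the paired domain motif were not searched. This share is therefore not the share of sites with a Pax7 motif. The paper reports homeobox and paired motifs as enriched among Pax7 sites. Neither CAGCTG nor AGGAAG, a sequence bound by ETS factors, occurs in the 200 bases upstream of *Tek*.

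An ATAC-seq peak at this site was present in all 10 files, with the 3 greatest heights in +Dox, Pax7-flag and satellite cells. The height of a peak is given as its fold over background from the authors' peak caller, with 1 merged file per condition and hence no replicate check and no test. It was 93.1 in +Dox, 28.1 at 12 h, 35.3 at 24 h and 39.5 at 3 days after Dox removal. Satellite cells had 76.4. In C2C12 myoblasts with Flag-tagged Pax7 it was 98.5, with the flag control 40.9, and in plain C2C12 myoblasts 13.9. In +Dox, Pax7-flag and satellite cell files the peak was higher than 99.7% or more of the file's peaks, and in the other 7 files than 90.9% to 98.5%.

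At the start of *Tek* the order was different. Satellite cells had the highest peak within 1 kb (19.3-fold), followed by Pax7-flag C2C12 myoblasts (11.8-fold). In iPax7 cells it was 4.73-fold in +Dox and 5.09-fold 3 days after withdrawal, and no peak was called at 12 h, in the flag control or in plain C2C12 myoblasts. A peak was thus present at the start at 3 days, when *Tek* RNA was near 0.

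**Figure D2:**
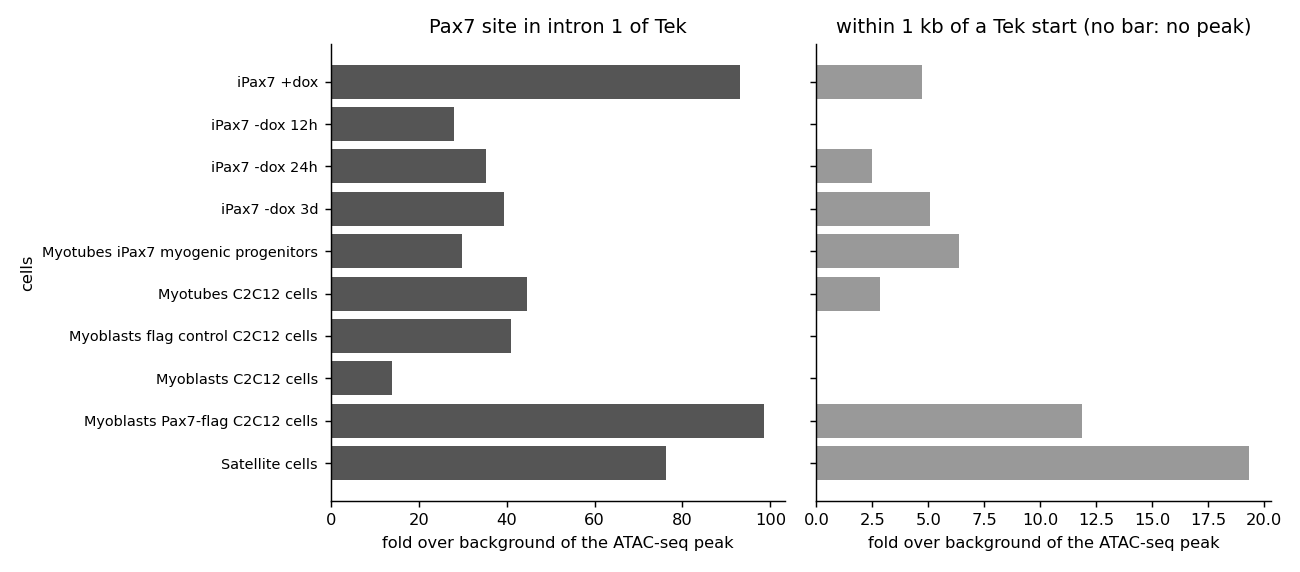
ATAC-seq peak height, as fold over background, at the Pax7 site in intron 1 of *Tek* (left) and within 1 kb of a *Tek* start (right), 1 merged peak file per bar. At the intron site +Dox, Pax7-flag C2C12 and satellite cells reach 76.4 to 98.5 and the other 7 files 13.9 to 44.6.

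In iPax7 cells histone acetylation over the first part of *Tek* was found in +Dox and not in -Dox. Over the first 20 kb of the gene, H3K27Ac, a mark of active promoters and enhancers, had 15 peaks covering 5012 bases in +Dox and none at 3 days without Dox, when the nearest peak was 123957 bases away. The -Dox file held fewer H3K27Ac peaks in all (90168 against 119528). At the Pax7 site itself neither the +Dox nor the -Dox file had an H3K27Ac peak. In C2C12 myoblasts the flag control had 1 H3K27Ac peak of 507 bases over the first 20 kb and Pax7-flag cells 8 peaks over 6545 bases. Pax7-flag cells also had an H3K27Ac peak at the Pax7 site, and the flag control had none. The Pax7-flag file held more H3K27Ac peaks in all (108211 against 81508). H3K4me1, a mark of enhancers, covered 7310 bases in +Dox and 2618 in -Dox, where the files held 186990 and 243932 peaks. It covered 1201 bases in the flag control against 11925 in Pax7-flag cells, where the files held 139166 and 199643 peaks. H3K4me3, a mark of promoters, went the other way, with 1171 bases in +Dox and 2167 in -Dox, where the file had 214172 peaks against 94067. These are sums over peaks called separately in each file.

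Among blood markers, *Ptprc* (chromosome 1, 139959438 to 140071882, minus strand) encodes the CD45 phosphatase and had no read in any iPax7 library. It had 392, 331 and 584 normalized counts in the satellite cell libraries (436 ± 132, SD, n = 3), so these do not overlap with iPax7 cells. The level was at least 550-fold that of +Dox and at least 316-fold that of -Dox. *Ptprc* was the lowest of the 9 genes per length of exon in satellite cells, at 74.9 normalized counts per kb.

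*Cd68*, a scavenger receptor of the macrophage lysosome (chromosome 11, 69477715 to 69479655, minus strand), was not restricted to satellite cells. It gave 337, 464 and 158 normalized counts in +Dox, 181 and 206 in -Dox, and 1718, 288 and 811 in satellite cells. Satellite cell replicate 2 fell inside the +Dox range, and replicate 1 was 5.96 times replicate 2. Against +Dox the log2 difference was 1.56 (standard error 0.66, adjusted p = 0.0808), but it passed without satellite cell replicate 2 (adjusted p = 0.0224) and with DESeq2 (0.0328). Against -Dox it was 2.28 (standard error 0.79, adjusted p = 0.0458), and this call was lost under 9 of 15 alternatives.

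*Lyz2* encodes lysozyme M of macrophages and neutrophils (chromosome 10, 116714390 to 116719377, minus strand). Its satellite cell values were 6861, 1411 and 1340, replicate 1 being 5.12 times the lowest. In +Dox it had 28.5, 0.741 and 0, nearly all from replicate 1, and in -Dox 23.0 and 102. The groups do not overlap: the lowest satellite cell library was 46.9 times the highest of +Dox and 13.2 times that of -Dox. Satellite cells were higher by 8.31 (standard error 1.52, adjusted p = 0.00206) and 5.68 (standard error 1.597, adjusted p = 0.0197) on the log2 scale. The second call was lost without -Dox replicate 1 (adjusted p = 0.124), -Dox replicate 2 (0.0601) or satellite cell replicate 1 (0.0619). *Lyz1*, a near copy whose reads may be shared, was also highest in replicate 1, with 538, 17.4 and 153 in satellite cells, but lowest in replicate 2.

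The windows before the first starts of *Ptprc* and *Lyz2* are shown as those of a gene without a read and a gene with few reads in iPax7 cells. In gene orientation, with AGGAAG on either strand in capitals, each holds 2 copies, and 34.5% of 20660 genes hold at least 1. That share counts a gene if any of its starts has a copy, while the members were read at the first start only. *Pecam1* and *Ly6a*, the latter high in iPax7 cells, also hold 2, which overlap in *Ly6a*. *Cdh5*, *Kdr*, *Tek*, *Cd68* and *Dcn* hold none.
Ptprc upstream, chr1:140071883-140072082, minus strand: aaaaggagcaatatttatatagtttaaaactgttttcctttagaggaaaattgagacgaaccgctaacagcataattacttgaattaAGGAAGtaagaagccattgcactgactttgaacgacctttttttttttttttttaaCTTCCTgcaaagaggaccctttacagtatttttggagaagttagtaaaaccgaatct
Lyz2 upstream, chr10:116719378-116719577, minus strand: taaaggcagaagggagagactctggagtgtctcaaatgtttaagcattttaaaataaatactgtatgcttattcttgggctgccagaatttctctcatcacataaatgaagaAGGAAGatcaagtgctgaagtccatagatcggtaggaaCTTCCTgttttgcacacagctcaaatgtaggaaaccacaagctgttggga
A match of letters is not a bound site.

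*Dcn*, the proteoglycan decorin (chromosome 10, 96942245 to 96980777, plus strand), was the member with the most RNA in satellite cells. It had 21209, 14280 and 23413 normalized counts there (19634 ± 4766, SD, n = 3), or 10136 per kb of exon, above every other member in each library. The +Dox libraries had 24.0, 28.1 and 98.3 and the -Dox libraries 899 and 886. The 3 groups do not overlap, and -Dox lies between the others. Satellite cells were higher than +Dox by 8.62 (standard error 0.65, adjusted p = 2.05e-05) and than -Dox by 4.46 (standard error 0.64, adjusted p = 0.000708) on the log2 scale.

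*Dcn* rose on Dox withdrawal, by 4.16 on the log2 scale (standard error 0.56, adjusted p = 0.00216), while 4.63% of all genes tested were called higher. The call held under all 15 alternatives, with log2 fold changes from 3.83 to 5.09. An ATAC-seq peak within 1 kb of a *Dcn* start was called in +Dox (3.87-fold) and in -Dox at 12 h, 24 h and 3 days (6.89-, 6.29- and 5.09-fold). Satellite cells, with the most RNA, had none within 9902 bases.

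*Ly6a* encodes the surface protein Sca-1 (chromosome 15, 74825308 to 74828064, minus strand) and was the member that did not set satellite cells apart. It had 2647, 2899 and 9643 normalized counts in +Dox, 1388 and 1447 in -Dox, and 852, 2291 and 4725 in satellite cells. The satellite cell range enclosed both -Dox libraries and overlapped with +Dox. Log2 differences were -0.95 (standard error 0.64, adjusted p = 0.254) from +Dox and 0.89 (standard error 0.73, adjusted p = 0.357) from -Dox. Both -Dox libraries were below all +Dox libraries, a log2 difference of -1.84 that did not pass (standard error 0.76, adjusted p = 0.198). It was detected in all 8 libraries.

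Per length of exon the order within each group can be read. In satellite cells *Dcn* led with 10136 ± 2461 normalized counts per kb (SD, n = 3), followed by *Ly6a* with 3202 ± 2391 and *Lyz2* with 2440 ± 2412, and these last ranges overlap. *Pecam1*, *Tek*, *Cdh5* and *Cd68* followed with means of 1179, 928, 811 and 747, each overlapping with its neighbor. *Kdr* (227) and *Ptprc* (74.9) came last, and *Ptprc* lay below *Kdr* in all libraries. In +Dox *Ly6a* led with 6182 ± 4846, followed by *Cd68* with 254 ± 122, and then by *Dcn* with 25.9 and *Tek* with 16.8. In -Dox the order was *Ly6a* (1731), *Dcn* (461), *Cd68* (154) and *Lyz2* (47.4), none of which overlap.

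**Figure D3:**
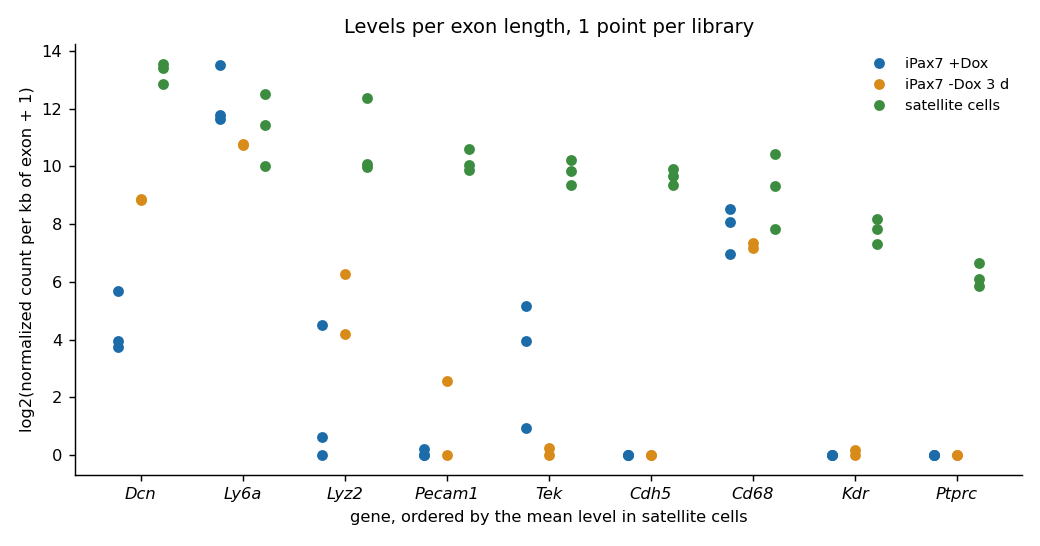
Level per exon length, as log2(normalized count per kb of exon + 1), for the 9 genes in order of their mean in satellite cells, 1 point per library and 1 color per group. *Ly6a* is high in all groups, *Cd68* differs least after it, and the 4 endothelial genes and *Ptprc* are at or near 0 in iPax7 libraries except for *Tek* in +Dox.

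Libraries within a group did not rank alike for the 3 lineages. Satellite cell replicate 2 was the highest for all 4 endothelial genes, with a summed level of 387 CPM against 241 and 282. Replicate 1 led for *Cd68* and *Lyz2*, and the blood genes summed to 190 in it against 42.9 and 57.8. Replicate 3 led for *Ptprc*, *Ly6a* and *Dcn*. Longer lists of endothelial and fibroblast genes ranked these libraries differently. In replicates 1 to 3, 20 other endothelial genes summed to 541, 653 and 740 CPM and 20 fibroblast genes to 2918, 3653 and 1818. Macrophage and myeloid genes (888, 274 and 546 CPM) and lymphoid genes (34.6, 10.7 and 24.1) ranked them as the sum of the blood genes did. Within +Dox, replicate 3 was the highest for *Tek*, *Ly6a* and *Dcn* and the lowest for *Cd68*.

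Longer marker lists were read beside the members, to see which other markers of the same cell types were detected. Of all genes tested, 23.9% were called higher in satellite cells than in +Dox and 20.4% than in -Dox. List genes tested without a read in iPax7 cells passed the filter only through the satellite cell libraries and so had to be higher there. Counts and medians of the lists are therefore a description. Of 20 further endothelial genes, 20 were called higher in satellite cells than in +Dox and 18 than in -Dox, with a median log2 fold change at the bounds of 7.70 and 6.46. Their summed level was 541 to 740 CPM in satellite cells, 18.7 to 28.7 in +Dox and 10.99 to 13.9 in -Dox. At 0 reads in +Dox were *Cldn5*, *Erg*, *Sox17*, *Sox18* and *Plvap*, and in satellite cells none. The most abundant were *Esam*, a junction adhesion molecule (3544, 3626 and 4786 normalized counts in satellite cells), *Cd93* (2779, 3685 and 5421), the receptor phosphatase *Ptprb* (1524, 3151 and 4169) and the TGF-beta coreceptor *Eng* (2849, 2448 and 1893). *Eng* was also present in +Dox, with 459, 409 and 369.

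Of 21 macrophage and myeloid genes, 17 could be tested, and 15 were called higher in satellite cells than in +Dox and 10 than in -Dox. Their sum was 888, 274 and 546 CPM in satellite cell replicates 1 to 3, 2.82 to 7.87 in +Dox and 7.44 to 13.0 in -Dox, and 14 and 15 genes respectively had no read in the iPax7 groups. *Cd74*, the invariant chain of antigen-presenting cells, had 18842, 8662 and 19085 normalized counts in satellite cells, and the endotoxin coreceptor *Cd14* had 4623, 1507 and 2817. The neutrophil genes *S100a8* and *S100a9* were concentrated in replicate 1, with 5320 and 4899 against at most 381 in the other libraries. This is also the replicate with the highest *Lyz2* and *Cd68*. Of 10 lymphoid genes, 8 could be tested and 6 were called higher than in +Dox and 2 than in -Dox. They summed to 10.7 to 34.6 CPM in satellite cells and to at most 1.08 in iPax7 libraries. The T cell gene *Cd3e* had 373, 50.9 and 136 normalized counts, and the B cell genes *Cd79a* had 413, 295 and 518 and *Ms4a1* had 308 in replicate 1 and 0 in the others. Of 10 erythroid genes 3 could be tested and *Alas2*, which starts heme synthesis, was called higher in both comparisons (1174, 735 and 859 normalized counts). *Epor* and *Ermap* were not called. *Epor* had 158, 121 and 196 in +Dox and 75.0, 1.34 and 1.32 in satellite cells. The median log2 fold change of the tested erythroid genes at the bounds was -2.07 against +Dox and -1.21 against -Dox. The 4 globin genes are listed at 0 in all libraries, satellite cells included. Whether reads of these related sequences were set aside as matching several places was not tested, so the 0 does not show that globin RNA was absent.

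Of 20 fibroblast and fibro-adipogenic genes, 15 were called higher and 2 lower in satellite cells than in +Dox, and 13 higher and 0 lower than in -Dox. The collagens *Col3a1* (45298, 33835 and 15593) and *Col1a1* (39901, 36016 and 12711) and dermatopontin, *Dpt* (9349, 50285 and 13065), were the most abundant. *Fbln1* and *Osr1* were lower than in +Dox. *Col1a1* rose on Dox withdrawal but stayed low, from at most 3.64 normalized counts in +Dox to 18.4 and 19.4. *Fap* rose as well, from 0 to 14.7 and 85.8. Of 10 pericyte and smooth muscle genes 8 were called higher than in +Dox. *Acta2*, smooth muscle actin, was highest in -Dox (53987 and 53844) and rose on withdrawal from 6218, 6981 and 3125. *Cnn1* of the same list fell on withdrawal, from 25.5, 21.5 and 60.1 to 0 in both -Dox libraries, and the other 8 were not called. Of all genes tested, 4.63% were called higher and 3.01% lower on withdrawal. Of 6 tendon genes 5 were called higher in both comparisons, and *Chad*, *Kera* and *Tnmd* had no read in iPax7 cells. Of 10 Schwann cell and glial genes 8 could be tested, with 8 and 5 called higher, and of 8 adipocyte genes 6, with 4 and 2 called higher, led by the fatty acid carrier *Fabp4* (16537, 12607 and 13966), which capillary endothelium also makes.

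Of 14 satellite cell marker genes, 12 were called higher in satellite cells than in +Dox and *Pax7* was called lower. All 14 were called higher than in -Dox. The list summed to 16843 to 27021 CPM in satellite cells, 4032 to 5668 in +Dox and 1116 to 1189 in -Dox. Set beside this, the sum of the 9 members was 781 to 934 in satellite cells, 65.6 to 213 in +Dox and 52.7 to 56.3 in -Dox. Most of the iPax7 sums came from *Ly6a* and *Dcn*, with 56.5 to 206 in +Dox and 48.3 to 49.3 in -Dox. The 4 endothelial members summed to at most 3.50 in +Dox and 0.468 in -Dox. Of 10 pluripotent genes, 3 could be tested and *Zfp42* was called lower in satellite cells than in +Dox. The list summed to at most 2.68 CPM in any library, and *Pou5f1* and *Nanog* were at 0 in all 8. The part of other cell types in the members' levels was not tested.

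**Figure D4:**
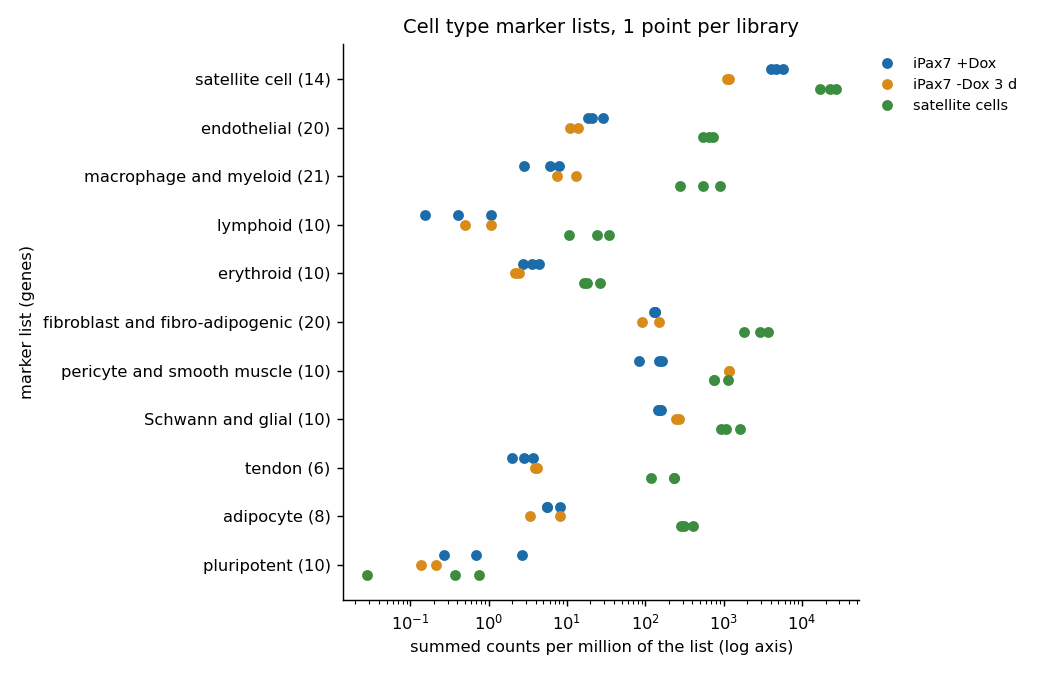
Summed CPM of each marker list (number of genes in brackets) in each library, on a log axis, 1 point per library. Among the 11 lists drawn, satellite cells lie above all iPax7 libraries for all but pericyte and smooth muscle, where -Dox reaches 1171, and pluripotent, where all libraries are below 3.

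Partners of the members in their own pathways were also counted, beside shares of all genes tested of 23.9% called higher and 18.2% called lower in satellite cells than in +Dox. Unlike most cell type lists, the summed CPM of the junction partners, the CD45 network, the lysosomal partners and the *Ly6* family did not lie above all iPax7 libraries in satellite cells. Of 15 tested genes of VEGF and angiopoietin signalling, 11 were called higher and *Vegfb* lower in satellite cells than in +Dox. The former include the receptors *Flt1*, *Flt4* and *Tie1*, the Tek ligands *Angpt1* and *Angpt2*, and *Vegfa*. On withdrawal *Flt1* and *Angpt1* were called higher and *Nrp2* lower, and 12 of the 15 were not called. Of all genes tested, 4.63% were called higher and 3.01% lower on withdrawal. *Flt1* stayed near the floor, with 2 reads in +Dox and 31 in -Dox, mostly from replicate 2 (2.76 and 25.8 normalized counts). Of 15 junction partners of *Pecam1* and *Cdh5*, 8 were called higher and 2 lower, the latter being the cadherins *Cdh2* (886, 497 and 160 against 12428, 11713 and 9455 normalized counts) and *Cdh11*. In the CD45 network 4 of 12 genes were higher, among them *Ptprcap*, which binds CD45, and 2 were lower, among them *Lgals1*. All genes had 23.9% higher and 18.2% lower, so these counts are given as a description.

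Of 13 tested lysosomal partners of *Cd68* and *Lyz2*, 4 were called higher and 3 lower than in +Dox, against 23.9% and 18.2% of all genes, with a median log2 fold change of 0.24. The scavenger receptor *Cd36* was higher in satellite cells in both comparisons and also rose on withdrawal, while the ubiquitous proteases *Ctsd* and *Ctsb* had at least 18530.0 normalized counts in every library. In the family of *Ly6a*, 6 of 14 tested genes were called higher and 2 lower. *Ly6c1*, which shares the *Ly6* cluster with *Ly6a*, had 585, 698 and 2368 normalized counts in +Dox, 125 and 166 in -Dox and 4700, 3694 and 4702 in satellite cells. Its +Dox replicate 3 stood above the others as that of *Ly6a* did, and it fell on withdrawal (log2 fold change -3.06, adjusted p = 0.0188), as did *Ly6e* (-1.50, adjusted p = 0.0138). Reads of these related sequences may be split between genes. Among small leucine-rich proteoglycans, the family of decorin, 7 of 11 were called higher in satellite cells than in +Dox, led by *Prelp* (76872, 40144 and 40332). *Ogn* behaved as *Dcn* on withdrawal, rising from 2519, 3360 and 2026 normalized counts to 30843 and 29458, but it was lower in satellite cells than in -Dox. *Aspn* rose too.

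Peaks near the starts of the members were compared with their RNA. The satellite cell ATAC-seq file had a peak within 1 kb of a start at 4 of the 9 genes, *Pecam1* (5.27-fold), *Kdr* (3.52-fold), *Tek* (19.3-fold) and *Cd68* (6.84-fold), against 60.1% of all genes. *Cdh5*, *Ptprc*, *Lyz2*, *Ly6a* and *Dcn*, 4 of which were called higher in satellite cell RNA, had none, and the nearest peaks were 5611, 130379, 46770, 4544 and 9902 bases away. The satellite cell ATAC-seq libraries were prepared separately from the RNA and are merged into 1 file. In +Dox 6 of the 9 genes had a peak, against 64.8% of all genes. These include *Kdr*, with no read in +Dox, *Pecam1*, with 1, and *Lyz2* and *Dcn*, which have none in satellite cells. Peaks at the start and RNA level were thus not ordered alike between the groups.

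H3K27me3, a mark of repressed genes, was present within 1 kb of a start at *Kdr* and *Lyz2*, in +Dox (22.6% of all genes), in -Dox (20.6%) and in both C2C12 files (19.4% in the flag control and 22.1% with Pax7-flag). In all of these cells *Kdr* also had an H3K4me3 peak within 1 kb, and *Lyz2* had none. The shares of all genes with H3K4me3 were 62.3% in +Dox, 68.2% in -Dox, 46.6% in the flag control and 39.2% with Pax7-flag. H3K27Ac was present at *Pecam1*, *Tek*, *Cd68* and *Ly6a* in +Dox (49.6% of genes) and at *Pecam1*, *Cd68* and *Ly6a* in -Dox (46.6%). C2C12 flag control cells had it at *Cd68* and *Ly6a* (55.3% of genes), and Pax7-flag cells also at *Pecam1* and *Tek* (56.4%). *Cdh5* and *Ptprc*, the members without a read in iPax7 cells, had no peak of any kind within 1 kb in any of the 27 files. The share of all genes without any such peak was not counted. *Cdh5* did have ATAC-seq peaks 2300 to 2462 bases from its start in iPax7 cells, their myotubes and Pax7-flag C2C12 myoblasts. With a 2.5 kb window 8 members had an ATAC-seq peak in +Dox (69.1% of all genes) and 4 in satellite cells (63%).

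**Figure D5:**
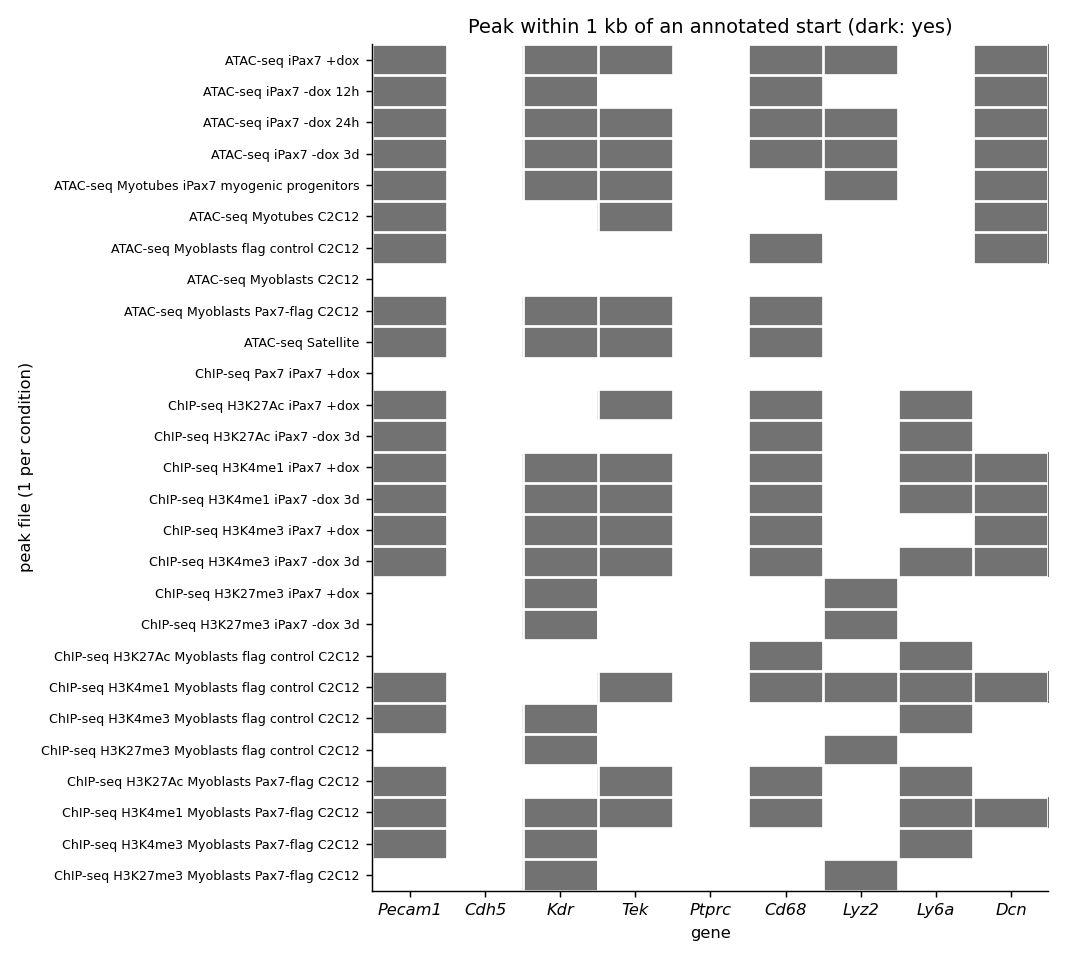
Presence of a peak within 1 kb of an annotated start of each gene, for the 27 peak files (10 ATAC-seq and 17 ChIP-seq), 1 file per condition. Dark cells mark a peak, and the columns of *Cdh5* and *Ptprc* are empty.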

How the data were processed

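RNA-seq files hold whole-number counts of reads per gene symbol, deposited by the authors without normalization, 1 file per library. The submitters' processing notes name Trimmomatic 0.32, TopHat2 2.0, HTSeq 0.6, Bowtie2, Picard, MACS2 2.0.10, edgeR and mm9. Settings for RNA-seq are not given in the sources used here. Summary rows (such as reads matching several places) were left out of library sizes. ATAC-seq peak files, called by the authors with MACS2 on merged replicates after shifting reads for the transposase, give a fold (ratio) over background and −log10 q. The deposited ChIP-seq files (Qeseq) hold coordinates alone. Pax7 peaks were kept by the authors only where found in several +Dox replicates and in none without Dox.

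Counts of all 24466 genes were fitted in edgeR 4.0.16 (R 4.3.3) with TMM factors, filterByExpr, 1 mean per group, all 8 libraries in 1 fit and the quasi-likelihood test. Standard errors were derived from the log2 fold change and its F statistic. Replicate numbers come from the file names, and the labels do not say whether libraries are separate cultures or animals, so p-values measure the spread between these libraries. Ratios with 1 to 3 counts in a group carry exact Clopper-Pearson based 95% intervals. Starts, exon lengths and sequence are from GENCODE M1 on NCBIM37 (mm9), where 20660 symbols (84.4%) matched. Alternatives were DESeq2 1.42.0, RLE factors, total counts, 2 other filters, fits of the groups compared, a replicate block and leaving out each library. The fit was tested on simulated counts.

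Members and lists (17, besides the members) were chosen with earlier results of these data known. Genes named from a list are those with the highest mean in the group where the list summed highest, at most 4, and others were named after their values were seen, as calls of that list, and *Pdgfra* as the sort marker. The genes most like a member are those with the highest Pearson r of log2(CPM + 0.1), CPM being counts scaled to 1e6 per library. Upstream sequences other than those printed are not reported here.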

Additional observations from a re-analysis of the deposited data

How the results depend on the processing

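Of the members' calls in satellite cells, those of *Pecam1*, *Cdh5*, *Kdr*, *Tek*, *Ptprc* and *Dcn* held in both comparisons under all 15 alternatives (for *Pecam1*, *Cdh5*, *Kdr* and *Ptprc*, tested only because satellite cells are high, this was fixed in advance), and that of *Lyz2* against +Dox did so too. *Cd68* and *Lyz2* against -Dox, and *Tek* on withdrawal, were lost under 9, 3 and 9 of 15. Leaving out 1 library at a time gave 7 to 8 members higher against +Dox, 6 to 8 against -Dox, and on withdrawal 1 to 2 higher and 0 to 1 lower. The second riser was *Lyz2* without +Dox replicate 1 (adjusted p = 0.0422) or *Pecam1* without -Dox replicate 1 (0.00717). The log2 fold change of *Pecam1* on withdrawal ranged from -1.66 (without -Dox replicate 2) to 6.42, and that of *Esr1* from -1.67 to 8.23. With the replicate number as a block, members called lower on withdrawal went from 1 to 0, all genes lower from 447 to 266, list genes higher from 14 to 8 and lower from 11 to 7. Numbers do not pair the samples (correlations of deviations at the same number were -0.0398 to 0.0272), so this is given for completeness. In fits of the groups compared alone, withdrawal gave 0 members lower, 951 genes lower and 9 list genes higher. DESeq2 gave 1089 genes higher (687 in edgeR) and 1047 lower on withdrawal, with 22 and 20 list genes, and 17 list genes lower in satellite cells than in -Dox (10 in edgeR). Without 1 library, genes called on withdrawal ranged from 363 to 779 higher and 125 to 595 lower, and list genes from 8 to 13 and 2 to 12. Against -Dox these ranges were 1571 to 3194 and 1633 to 2808 genes, with 6 to 14 list genes lower. Total counts in place of TMM moved the median of all genes against +Dox from 0.17 to -0.20. ATAC-seq peaks with −log10 q of at least 5 left 3 members (of 5) in iPax7 myotubes and 0 (of 3) in C2C12 myotubes, and a 2.5 kb window gave 1 (of 0) in C2C12 myoblasts. The cause of these changes was not tested. With 2 libraries in -Dox and genes at 0 reads, depth limits *Cdh5* and *Ptprc* to an upper bound of 3 counts per group.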

Other observations

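Over the 8 libraries the genes whose log2 CPM were most like a member were given by Pearson's r, as a description over libraries that share 3 groups. For *Cdh5* these were *Gucy1a3*, *Nos2* and *Csf3* (0.999934, 0.999887 and 0.999853). For *Ptprc* they were *Hnmt*, *Gimap6* and *Adam30* (0.999957, 0.999947 and 0.999678), and for *Kdr* *P2ry14*, *Slfn5* and *C230004F18Rik*. *Tek* was closest to *Fbrsl1* (0.999) and to *Chrdl2* (0.994), a satellite cell gene of the lists. *Ly6a* had weaker neighbors, led by *Nacc1* (0.973). Among the members, *Cdh5* and *Kdr* had the highest r (0.9995), with 1 read between them in all iPax7 libraries, and *Lyz2* and *Ly6a* the lowest (-0.48).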
